A study of Homo sapiens with 2 samples.

Results

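The BCL2 family comprises the proteins that decide whether the outer membrane of the mitochondrion stays intact. The 10 family genes described here were taken from the 58735 genes of the deposited table by their gene names, and all 10 were found. They fall into 3 antiapoptotic genes (BCL2, BCL2L1 and MCL1), 2 effector genes (BAX and BAK1) and 5 BH3-only genes (BID, BBC3, PMAIP1, BCL2L11 and BIK). RNA was sequenced from the human glioblastoma (GBM) line SF-539 in 2 forms: cells transduced with the lentiviral control pGIPZ-CTRL (shControl) and cells transduced with a lentiviral shRNA against FKBP9 (shFKBP9), an endoplasmic reticulum (ER) protein of the FK506-binding family. Both were selected as stable clones with puromycin, at passages 15-18, and both carry a lentiviral vector. There was 1 library per condition, so no difference between shControl and shFKBP9 cells has a replicate check, and a library difference cannot be told apart from an effect of the shRNA.

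In a living cell the antiapoptotic proteins hold the effectors BAX and BAK in check, and BH3-only proteins, which are made or activated upon stress, either neutralise the antiapoptotic proteins or activate the effectors directly. Once freed, BAX and BAK open pores in the outer mitochondrial membrane and cytochrome c escapes to start the caspase cascade. Prolonged ER stress is known to feed into this balance through several BH3-only genes, and MCL-1 and Bcl-xL are known as survival factors of glioma cells. The study followed Bcl-2, XIAP and Mcl-1 by immunoblot in these cells and reported lower protein levels after FKBP9 knockdown. The RNA values below address the transcripts of these and related genes, not the proteins.

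The deposited values are FPKM, which are fragments scaled by gene length and by the size of the library, and from them the whole number of fragments on each gene was recovered. The shControl library held 18116873 fragments on genes and the shFKBP9 library 17158514. FKBP9, the targeted gene, had 4659 fragments (49.8 FPKM) in the shControl library and 415 (4.68 FPKM) in the shFKBP9 library, a log2 ratio of -3.38 (95% interval -3.56 to -3.27). Here and below the log2 ratio is that of shFKBP9 over shControl after adding 0.1 FPKM to both values, and the 95% intervals are exact intervals from the fragments (Poisson for a level, Clopper-Pearson for a ratio) that cover counting error only. The labels call the cells epithelial glioma cells of the brain. The 4 mesenchymal markers summed to 1191 FPKM in shControl and 1246 in shFKBP9, of which COL1A1 gave 837 and 884 and FN1 305 and 307, while THY1 had 3 and 1 fragments. The 5 epithelial markers summed to 1.77 and 1.57 FPKM, mostly from KRT8 (159 and 129 fragments), and CDH1 had 0 and 1 fragments. Of the 6 glial and neural stem markers, VIM, which mesenchymal cells also express, had 277 and 295 FPKM, NES 2.36 and 2.17 FPKM, OLIG2 48 and 41 fragments, GFAP 43 and 29, SOX2 4 and 7 and S100B 0 and 1. The 3 neuronal markers summed to 5.07 and 5.81 FPKM, mostly from SNAP25 (303 and 332 fragments), and the 3 endothelial ones to 0.107 and 0.149 FPKM. The 4 leukocyte markers summed to 0.454 and 0.819 FPKM, mostly from CD14 (13 and 24 fragments, log2 ratio 0.81, -0.07 to 2.06), with CD79A at 2 and 2 fragments and PTPRC and CD3E at 0.

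Promoter sequence is shown for PMAIP1, the member with the largest difference between the libraries, and for BAX, whose 2 values lay within counting error, because both hold the half-site of the cAMP response element, the kind of site that factors of the ATF and CREB families bind. The bases end just before the first annotated start of each gene, on the plus strand of GRCh38.p14 (RefSeq), and capitals mark the half-site TGACG or its complement CGTCA.
PMAIP1 chr18:59899746-59899947: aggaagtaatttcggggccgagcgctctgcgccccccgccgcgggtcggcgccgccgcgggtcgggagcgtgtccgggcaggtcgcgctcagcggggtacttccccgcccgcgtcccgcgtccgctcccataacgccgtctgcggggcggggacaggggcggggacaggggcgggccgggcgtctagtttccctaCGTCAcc
BAX chr19:48954625-48954814: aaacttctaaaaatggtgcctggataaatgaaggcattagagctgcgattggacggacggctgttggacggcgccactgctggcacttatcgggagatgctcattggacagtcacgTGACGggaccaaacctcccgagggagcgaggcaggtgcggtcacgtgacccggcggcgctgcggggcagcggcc

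The half-site begins 55 bases before the start of the MANE Select transcript of PMAIP1 and 134 bases before that of BAX. Both strands of the 250 bases before the start were searched. Of the 8 members with a promoter window in RefSeq, 3 held the half-site (BCL2, BAX and PMAIP1), against 21.2% of all 35116 windows. The GC box GGGCGG stood in 5 of the 8 and in 42.6% of all windows, and 4 copies lay in the PMAIP1 window. The E-box CACGTG stood in 2 of the 8, with 4 copies in the BAX window, 1 of which overlaps its half-site, and in 6.34% of all. The TATA box TATAAA (10.7% of all windows), the full element TGACGTCA (1.65%) and the C/EBP-ATF element TGATGNAA (3.14%) were found in 0 of the 8. The full element contains the half-site, so these 2 motifs overlap. For BBC3 the window belongs to another start than that of its MANE Select transcript.

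MCL1 was the most abundant of the 10 genes and BIK the least. Ordered by FPKM in shControl, the genes ran MCL1, BAX, BAK1, BID, BCL2L1, PMAIP1, BBC3, BCL2L11, BCL2 and BIK. In shFKBP9, BCL2L1 stood ahead of BAK1 and BID, and the order of the others was as in shControl. BAK1 and BID, and BID and BCL2L1, were neighbours whose intervals overlapped in shControl, as did those of BCL2L1 and BAK1, and of BAK1 and BID, in shFKBP9, where those of BCL2 and BIK also overlapped. The level of MCL1 was 183 times that of BCL2 in shControl and 258 times in shFKBP9, or 118 and 167 times by the transcript lengths described below. Of the 10 genes, 8 reached 1 FPKM in both libraries and 9 had at least 10 fragments in the libraries together. The gene with fewer was BIK.

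**Figure D1:**
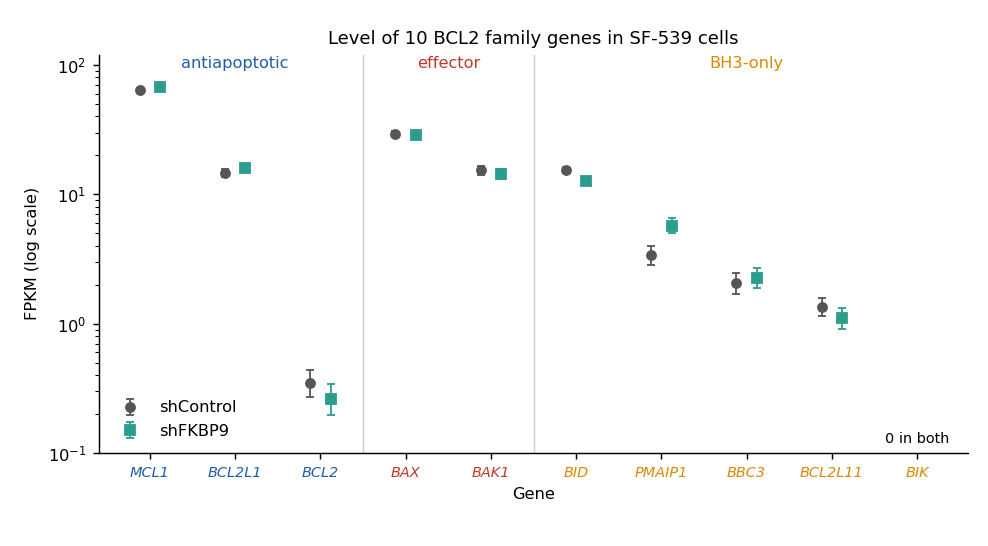
FPKM of the 10 genes on a log axis in the shControl (circles) and shFKBP9 (squares) libraries, with exact 95% Poisson intervals of counting error, 1 library each. MCL1 lies highest at 63.4 and 67.8 FPKM, BCL2 lies lowest of the genes detected, and BIK had 0 fragments in both.

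These levels depend on the gene length by which fragments are divided, and the deposited table uses lengths that exceed those of the MANE Select transcripts in GENCODE release 44. For BAX the table gives 2587 bases and the transcript has 795, for BID 4446 and 2177, and for MCL1 4371 and 3950. Divided by transcript length, BAX would lie above MCL1, at 95.5 against 70.2 in shControl and at 93.7 against 75.0 in shFKBP9. The order BID, BCL2L1, BAK1 would then hold in both libraries, at 31.4, 18.8 and 15.7 in shControl and 25.9, 20.5 and 14.6 in shFKBP9. The place of MCL1 ahead of BAX, and the different order of these 3 genes in shFKBP9, therefore rest on the deposited lengths. A ratio between the libraries does not depend on the length, apart from the small effect of the 0.1 FPKM added.

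Of the 10 genes, 0 differed by more than 2-fold between the libraries. Of the 12741 genes that reached 1 FPKM in at least 1 library, 4.21% did, with 2.02% higher and 2.19% lower in shFKBP9, as did 0.406% of the 10346 protein-coding genes among them. At 1.5-fold the count was 1 member, PMAIP1, against 8.68% of all these genes and 2.42% of the protein-coding ones. In RNA from whole cultures, fewer cells that express a gene and less of its RNA per cell cannot be told apart. The 95% interval of the ratio left out 0 for 3 members. PMAIP1 and MCL1 were higher in shFKBP9 and BID was lower. Over all 17105 genes with at least 10 fragments the interval left out 0 for 30.8%, with 13.8% higher and 16.9% lower, and over genes with at least 100 fragments, which all 9 members had, for 40.8%. The count of 3 of the 9 members lies between these shares and is no result about the members. The median log2 ratio of these 9 was -0.03, beside -0.02 over all genes with at least 10 fragments. The log2 ratio was above 0 for 4 of them and below 0 for 5.

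**Figure D2:**
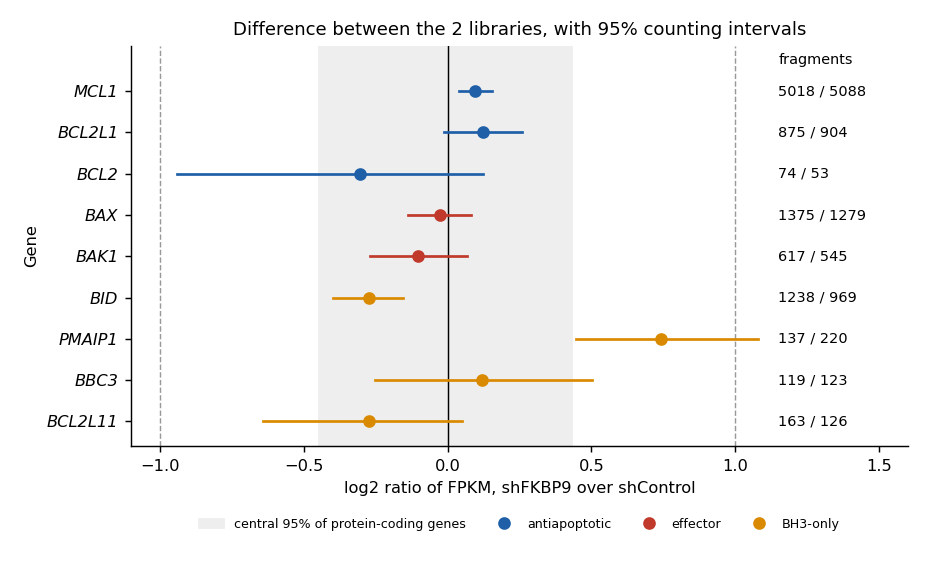
Log2 ratio of FPKM (shFKBP9 over shControl) of the 9 members with at least 10 fragments, coloured by class, with 95% counting intervals; fragments in shControl and shFKBP9 stand at the right, the dashed lines mark 2-fold and the grey band the central 95% of protein-coding genes. PMAIP1 at 0.74 lies outside the band, and the other 8 lie within it.

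Among the antiapoptotic genes, MCL1 encodes a short-lived survival protein that binds BAK and several BH3-only proteins. It lies on chromosome 1 from 150574551 to 150579738 (hg38, minus strand), with 3 exons in its MANE Select transcript. MCL1 had 5018 fragments and 63.4 FPKM in shControl (interval 61.7 to 65.2), and 5088 fragments and 67.8 FPKM in shFKBP9 (66.0 to 69.7). The shFKBP9 level was the higher and the intervals of the levels did not overlap. The log2 ratio was 0.10 (0.04 to 0.15), which is 107% of the shControl FPKM. A ratio above this was found for 28.7% of the 10346 protein-coding genes, so a small difference lay beyond counting error at this number of fragments.

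BCL2L1 (chromosome 20, 31664452 to 31723989, minus strand) encodes Bcl-xL, and in a shorter splice form the proapoptotic Bcl-xS, which values per gene do not separate. It had 875 fragments and 14.6 FPKM in shControl (interval 13.6 to 15.6), and 904 fragments and 15.9 FPKM in shFKBP9, and the intervals of the levels overlapped. With a log2 ratio of 0.12 (-0.01 to 0.26), the interval took in 0, but it left out 0 when the libraries were scaled by the median ratio of protein-coding genes, so the call depends on the scaling. Of the 100-base windows of its transcript, 30.2% are shared with ABALON, an antisense gene with 38 and 25 fragments, and reads in that part cannot be assigned without strand information.

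BCL2, the founding member of the family, lies on chromosome 18 from 63123346 to 63320128 (minus strand). It was the lowest of the genes detected, with 74 fragments and 0.347 FPKM in shControl (interval 0.273 to 0.436), and 53 fragments and 0.262 FPKM in shFKBP9 (0.197 to 0.343). The shFKBP9 value was the lower, and the intervals overlapped. Its log2 ratio was -0.30 with 0.1 added, and the counting interval, made without that addition, ran from -0.94 to 0.12. The shFKBP9 FPKM was 75.5% of that in shControl, a difference not detectable at this depth. By rank, BCL2 stood at place 11561 of 19951 protein-coding genes in shControl and at 11809 in shFKBP9, against 619 and 572 for MCL1.

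The effector genes lay within counting error of equal levels. BAX (chromosome 19, 48954815 to 48961798, plus strand), which moves from the cytosol to the mitochondrion upon activation, had 1375 fragments and 29.4 FPKM in shControl, and 1279 fragments and 28.8 FPKM in shFKBP9. This is a log2 ratio of -0.03 (95% interval -0.14 to 0.08). BAK1 (chromosome 6, 33572547 to 33580293, minus strand), whose product BAK sits in the outer mitochondrial membrane, had 617 fragments and 15.4 FPKM in shControl, and 545 fragments and 14.4 FPKM in shFKBP9, with a log2 ratio of -0.10 (-0.27 to 0.07). Both intervals leave out a change of 1.5-fold, so depth limits the statement to smaller differences. The pseudogene BAK1P1, which shares 3.96% of the windows of BAK1, had 7 fragments in each library, and the ratio of the sum of both was -0.10 (-0.27 to 0.07). The level of BAX was 1.91 times that of BAK1 in shControl and 2.01 times in shFKBP9 by the deposited lengths, and 6.08 and 6.41 times by transcript length.

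PMAIP1 had the largest difference of the 10 genes. It encodes NOXA, a small BH3-only protein that binds MCL-1, and lies on chromosome 18 from 59899948 to 59904306 (plus strand), with 2 exons in its MANE Select transcript. The shControl library had 137 fragments, or 3.39 FPKM (interval 2.84 to 4.0), and the shFKBP9 library 220 fragments, or 5.73 FPKM (5.0 to 6.54). The shFKBP9 level was the higher and the intervals of the levels did not overlap. The log2 ratio was 0.74 (0.45 to 1.08) and the FPKM was 1.69 times that of shControl. The central 95% of protein-coding genes with at least 1 FPKM ran from -0.45 to 0.43, and 56 of these 10346 genes (0.541%) had a higher ratio than PMAIP1. Among the 10187 with at least 100 fragments, 37 (0.363%) did. These shares describe the member picked for its largest difference and are no test of it. Of the 100-base windows of its MANE Select transcript, 0% are shared with transcripts of other genes in GENCODE release 44.

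**Figure D3:**
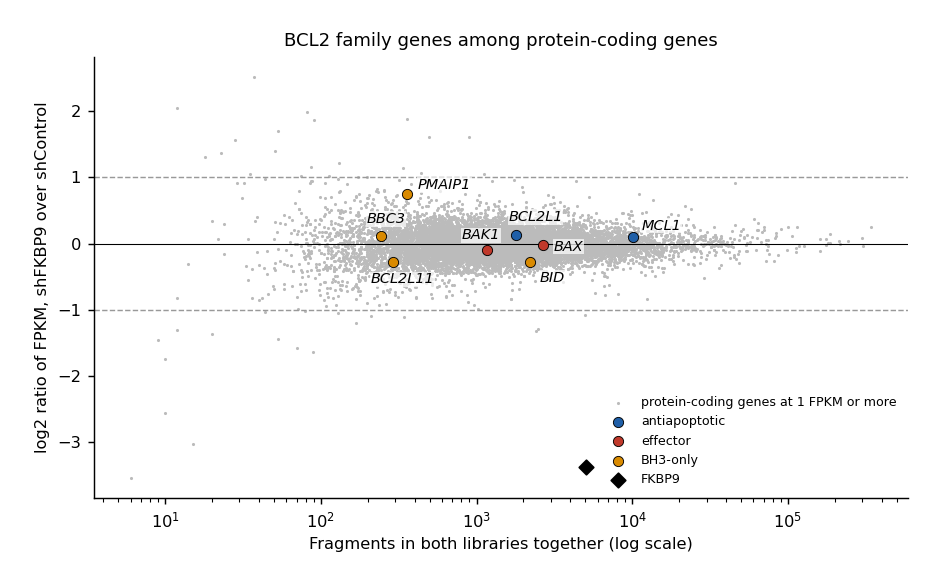
Log2 ratio of FPKM (shFKBP9 over shControl) against the fragments in both libraries (log axis) for the 10346 protein-coding genes that reached 1 FPKM (grey); 8 members are coloured by class, FKBP9 is the diamond and dashed lines mark 2-fold. PMAIP1 at 0.74 lies near the upper edge of genes with similar fragment numbers, and the other 7 members lie among the bulk.

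BID was the member with a lower value in shFKBP9 beyond counting error. It encodes a BH3-only protein that caspase-8 cleaves, which links death receptors to mitochondria, and lies on chromosome 22 from 17734138 to 17774770 (minus strand). BID had 1238 fragments and 15.4 FPKM in shControl (interval 14.5 to 16.3), and 969 fragments and 12.7 FPKM in shFKBP9 (11.9 to 13.5). The intervals did not overlap, and shFKBP9 was the lower. The log2 ratio was -0.27 (-0.40 to -0.15), which is 82.5% of the shControl FPKM. A lower ratio was found for 1034 of the protein-coding genes with at least 1 FPKM (9.99%), so the difference lay inside the central 95% of genes between these libraries.

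Of the 10 genes, the remaining BH3-only ones were at or below a few FPKM. BAD, a BH3-only gene outside the 10, lay higher, as given below. BBC3 (chromosome 19, 47220822 to 47232766, minus strand) encodes PUMA, which binds every antiapoptotic family protein. It had 119 fragments and 2.07 FPKM in shControl, and 123 fragments and 2.25 FPKM in shFKBP9, and the log2 ratio of 0.12 had an interval from -0.25 to 0.50. BCL2L11 (chromosome 2, 111119378 to 111168447, plus strand) encodes BIM, an activator of the effectors. It had 163 fragments and 1.35 FPKM in shControl, and 126 fragments and 1.10 FPKM in shFKBP9, and the log2 ratio of -0.27 had an interval from -0.64 to 0.05. BCL2L11 overlaps the opposite-strand gene MIR4435-2HG, which had 618 and 749 fragments, and 12.6% of its windows are shared with that gene, so its value is uncertain. BIK (chromosome 22, 43110748 to 43129712, plus strand) had 0 fragments in both libraries, for which the exact interval allows a level of up to 0.214 FPKM (shControl) or 0.225 FPKM (shFKBP9). No ratio can be given for it.

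Summed by class, the antiapoptotic genes had 78.3 ± 1.02 FPKM in shControl (counting SE) and 84.0 ± 1.09 in shFKBP9, a log2 ratio of 0.10 (95% interval 0.05 to 0.15). MCL1 made up 80.9% and 80.8% of these sums. With each gene given the same weight, as a geometric mean, the ratio turned to -0.06, since BCL2 then counts as much as MCL1. The effector sum was 44.8 ± 1.01 FPKM in shControl and 43.1 ± 1.01 in shFKBP9, with a ratio of -0.05 (-0.14 to 0.04). The BH3-only sum was 22.2 ± 0.567 FPKM in shControl and 21.8 ± 0.606 in shFKBP9, with a ratio of -0.03 (-0.13 to 0.08), which as a geometric mean of the 4 genes detected was 0.08. Within this sum, BID held 69.3% of the BH3-only sum in shControl and 58.3% in shFKBP9, while PMAIP1 held 15.3% and 26.3%. By transcript length BID held 77.1% and 68.2% and PMAIP1 9.79% and 17.8%. Without BID, the ratio of the BH3-only sum was 0.42. PMAIP1 was then the only gene in the sum that differed beyond counting error. The level of MCL1 was 18.7 times that of PMAIP1 in shControl and 11.8 times in shFKBP9. The antiapoptotic sum was 1.17 ± 0.0253 times that of the other classes together in shControl and 1.29 ± 0.0289 times in shFKBP9. By transcript length these values were 0.589 and 0.656, so which side outweighs the other depends on the lengths. The higher value stood in shFKBP9 by both. The sums hold the 10 members only. BAD (20.3 FPKM in shControl and 20.7 in shFKBP9) and BCL2L2 (14.6 and 14.8) are not in them.

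**Figure D4:**
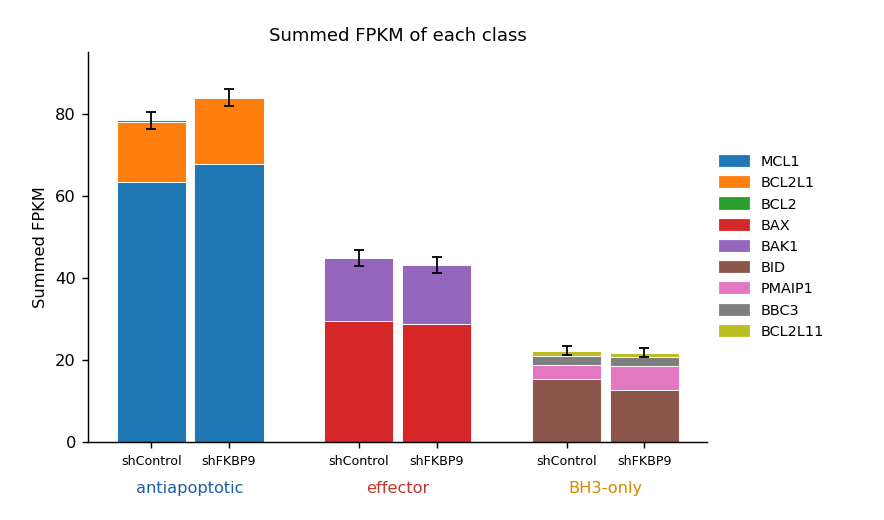
Summed FPKM of the antiapoptotic, effector and BH3-only genes in each library, stacked by gene, with error bars of 95% counting error. The antiapoptotic sum is 78.3 in shControl and 84.0 in shFKBP9, the effector sum 44.8 and 43.1, and the BH3-only sum 22.2 and 21.8 with a larger PMAIP1 segment in shFKBP9.

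Further genes of the pathway were taken from lists of 52 genes, for which 43 of 53 table entries reached 1 FPKM in at least 1 library. Of the 45 with at least 10 fragments, the interval lay above 0 for 15 and below 0 for 11, and 0 were past 2-fold. Over all genes with at least 100 fragments the interval left out 0 for 40.8%. The median log2 ratio of the 45 was -0.01. By the exact binomial test with Benjamini-Hochberg adjustment over all genes, 10 of the 15 and 8 of the 11 kept their calls. That test called 21.8% of the genes with at least 10 fragments, a wider set than that of the 40.8%. Its share at 100 fragments or more was not computed. Below, higher and lower mean beyond counting error by the interval, and the adjusted p of this exact test is given for each named gene that lost its call.

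In the rest of the BCL2 family, BCL2L2, which encodes the antiapoptotic Bcl-w, had 1109 fragments in shControl and 1067 in shFKBP9, at 14.6 and 14.8 FPKM (ratio 0.02, -0.10 to 0.14). BAD, a BH3-only gene controlled by survival kinases, had 20.3 and 20.7 FPKM (0.03, -0.13 to 0.19). BMF, a BH3-only gene linked to the cytoskeleton, had 110 and 141 fragments and a ratio of 0.40 (0.06 to 0.81, exact adjusted p = 0.0781). The antiapoptotic BCL2A1 and the effector-like BOK had under 10 fragments, and BCL2L10 and HRK had 0 in both libraries. Of the 8 BCL2-like and BNIP genes, 6 had at least 10 fragments, and 3 of these were higher beyond counting error and 0 lower, beside 18.4% higher and 22.3% lower of all genes with at least 100 fragments. BNIP3L, a mitophagy receptor, had 48.4 FPKM in shControl and 67.0 in shFKBP9 (0.47, 0.41 to 0.53). BNIP3, its paralog, had 121 and 143 FPKM (0.25, 0.21 to 0.28), and BNIP2 had 6.21 and 7.59 FPKM (0.28, 0.16 to 0.42).

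Downstream of the BCL2 family, the 11 mitochondrial apoptosis genes had a median of -0.01 over 11 table entries with at least 10 fragments, with 3 higher and 3 lower beyond counting error, of which 2 and 2 kept their calls in the exact test. Over all genes the shares were 40.8% by the interval, at 100 fragments or more, and 21.8% by the exact test, at 10 fragments or more. CASP9, the initiator caspase of the apoptosome, had 228 and 169 fragments (-0.34, -0.65 to -0.06, exact adjusted p = 0.0668). HTRA2, a mitochondrial protease that antagonises inhibitors of apoptosis, had 596 and 472 (-0.26, -0.44 to -0.08). VDAC2, an outer membrane channel that binds BAK, had 58.6 and 52.9 FPKM (-0.15, -0.22 to -0.07), and VDAC3 had 37.8 and 40.8 FPKM (0.11, 0.03 to 0.20). DIABLO is split over overlapping entries of the table, with 65 and 57 fragments on one and 0 on the other, and its value is uncertain.

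At the ER, where BCL2 family proteins also act on calcium release, the interval lay above 0 for 1 of the 7 partner genes and below 0 for 3, again beside 40.8% of all genes. By the sign of the ratio alone, 2 of the 7 were above 0 and 5 below. ITPR3 and ITPR1, which encode inositol trisphosphate receptors, went opposite ways, ITPR3 from 21.7 to 17.9 FPKM (-0.28, -0.35 to -0.21) and ITPR1 from 2.42 to 2.76 FPKM (0.18, 0.08 to 0.29). TMBIM6, known as BAX inhibitor 1, had 122 and 106 FPKM (-0.20, -0.24 to -0.16), and BCAP31 had 60.8 and 58.1 FPKM (-0.07, -0.13 to -0.00123, exact adjusted p = 0.149). Of the 5 genes for turnover of the MCL-1 protein, all had a ratio below 0, from -0.38 to -0.02. The interval lay below 0 for 2 of them and took in 0 for 3. Of all genes with at least 100 fragments, 53.5% had a ratio below 0 and 22.3% were lower beyond counting error. The 2 lower genes encode ubiquitin ligases. HUWE1 had 28.4 FPKM in shControl and 21.9 in shFKBP9 (-0.38, -0.42 to -0.33), and MARCH5 had 9.53 and 8.29 FPKM (-0.20, -0.35 to -0.05).

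Of the 13 genes for transcription regulators of the family, 12 had at least 10 fragments, and the interval lay above 0 for 6 and below 0 for 3, of which 3 and 2 kept their calls in the exact test. These counts stand beside the same 40.8% of genes with at least 100 fragments and 21.8% of those with at least 10. ATF4, the transcription factor of the PERK branch and a regulator of PMAIP1, had 4219 and 5599 fragments, at 92.7 and 130 FPKM (0.48, 0.43 to 0.54). DDIT3, which encodes CHOP, had 14.2 and 19.7 FPKM (0.47, 0.26 to 0.68). ATF3 had 210 and 260 fragments (0.37, 0.12 to 0.65) and TRIB3 178 and 213 (0.33, 0.04 to 0.63, exact adjusted p = 0.0885). The values of these factors stand beside that of PMAIP1, and their part in it was not tested. XIAP, an inhibitor of caspases outside the BCL2 family, had 6.71 FPKM in shControl and 8.74 in shFKBP9 (0.38, 0.26 to 0.50).

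**Figure D5:**
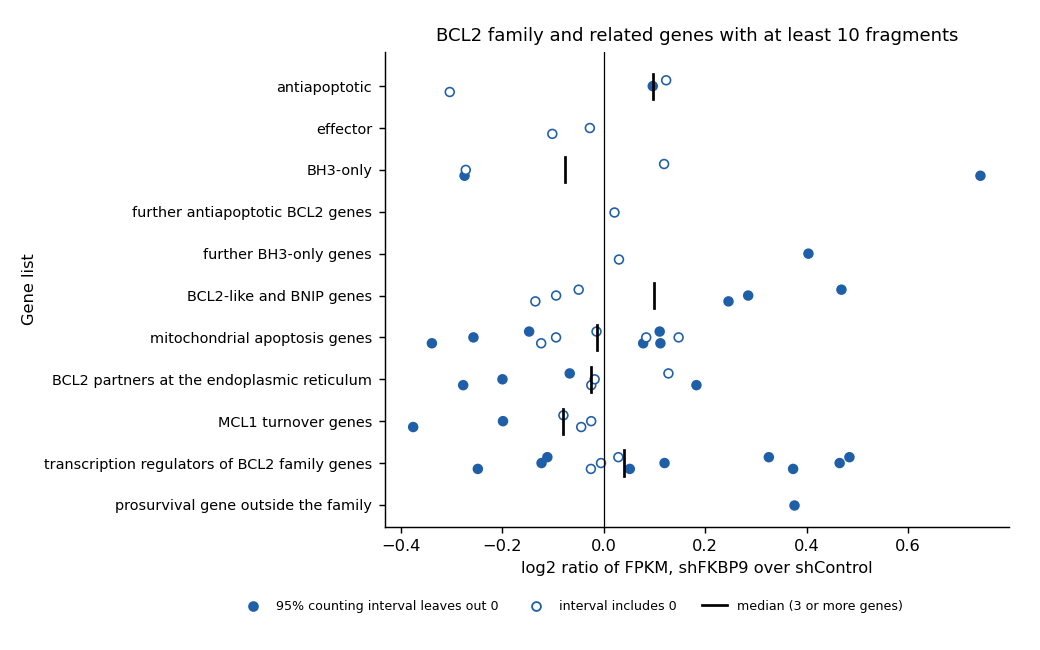
Log2 ratio of FPKM (shFKBP9 over shControl) of each member and related gene with at least 10 fragments, by list; filled points have a 95% counting interval that leaves out 0 and black bars are medians of lists with 3 or more genes. PMAIP1, in the BH3-only row, is the point farthest from 0 at 0.74.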

How the data were processed

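The authors removed reads with adapters, undetermined bases or low quality, aligned paired-end reads to hg38 with HISAT2 2.0.5, counted them per gene with featureCounts 1.5.0-p3, and deposited FPKM for 1 shControl and 1 shFKBP9 library. The annotation release and the use of strand in counting are not given in the sources used here. No further value columns were present.

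Fragments were recovered as FPKM times gene length over the smallest such product of a library. Within 0.01 of a fragment, 100% of values above 0 were whole, and 1 fragment on 1 kilobase was worth 0.0552 FPKM in shControl and 0.0582 in shFKBP9. Ratios were taken with 0.1 added, and calls used 2-fold at 1 FPKM in either library, or a 95% counting interval off 0 at 10 fragments. No test between the conditions was possible. Windows of 100 bases were matched to the transcripts of GENCODE release 44 on both strands. The sums of FPKM carry delta-method counting errors. Recovery, calls and intervals were tested on simulated data. The members and gene lists were chosen with earlier results of these data known. The genes named are FKBP9, the 10 members, up to 4 genes per list at 1 FPKM or more with the largest ratios and an interval off 0, with XIAP, ATF4 and DDIT3, listed genes at 0, overlapping genes and copies, and the nearest genes in level. Some items of the gene and motif lists are not reported here. Entries of BAD, BCL2L2, BCL2A1, BOK, VIM and other markers were named after their values were seen. Alternatives were other additions, scalings, limits, folds and intervals. Values were computed in Python 3.11.15 with scipy 1.17.1, numpy 2.4.6 and pandas 2.3.3, and drawn with matplotlib 3.10.9.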

Additional observations from a re-analysis of the deposited data

How the results depend on the processing

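With 1 library per condition neither a replicate could be left out nor a spread estimated. No paired analysis was possible because each condition had 1 library. Under other additions to FPKM, median scaling and TPM, each of the 9 members with fragments kept the sign of its log2 ratio. With 1 added, FKBP9 moved to -3.16, PMAIP1 to 0.62, BCL2 from -0.30 to -0.09 and BCL2L11 from -0.27 to -0.16. The number of members past 2-fold was 0 under the alternatives run, except that a fold of 1.5 gave 1, PMAIP1, against 8.68% of all genes tested at that level. MCL1, PMAIP1 and BID remained the members with an interval off 0 under TPM, a 99% interval and a minimum of 100 fragments. The same members were called by the exact binomial test with Benjamini-Hochberg adjustment, which compares 2 libraries rather than 2 conditions. That test called 21.8% of all genes with at least 10 fragments. Median scaling, which shifts ratios by 0.02, added BCL2L1 and gave 4. For the class sums, the geometric mean turned the antiapoptotic ratio to -0.0614 and the BH3-only ratio from -0.03, within counting error of 0, to 0.08. Leaving out BID, the BH3-only member with the highest FPKM, moved the BH3-only ratio to 0.42. Of the genes left in that sum, PMAIP1 alone differed beyond counting error. Dividing by transcript length, an alternative chosen after the data were seen, moved the BH3-only ratio to -0.10 and the antiapoptotic sum over the other classes to 0.589 in shControl and 0.656 in shFKBP9. Of 26 related genes with an interval off 0, 18 kept their calls in the exact test, an alternative also chosen after the data were seen. For BCL2, BBC3, BCL2L11 and BIK the fragments limit what can be seen.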

Other observations

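The protein-coding genes nearest to the most abundant member of each class, by distance in log2 (FPKM + 0.1) over the 2 libraries, are given as a description. Nearest to MCL1 were CKAP4 (62.8 FPKM in shControl and 66.5 in shFKBP9), ZFP36L1 (64.2 and 69.1) and ARL6IP5 (63.7 and 66.2). Nearest to BAX were YIPF3 (29.0 and 28.9 FPKM), CRK (29.7 and 28.7) and NR1H2 (29.6 and 29.2). Nearest to BID were MON1B (15.4 and 12.6 FPKM), TMEM123 (15.4 and 12.6) and SLC5A3 (15.2 and 12.7).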
